A study of Mus musculus with 21 samples.

Results

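The nuclear glutamine tRNAs of mouse brain were followed through a tRNA sequencing series on a Polr3a mutation. They are the table entries named Gln-CTG and Gln-TTG after their anticodons, without the mitochondrial glutamine tRNA and without a bacterial glutamine tRNA that served as spike-in. Chosen by name alone, they came to 9 entries in each tissue, 5 with anticodon CTG and 4 with anticodon TTG, of 209 entries in the cerebrum table and 208 in the cerebellum table with the spike-in left out. Entries with the same anticodon and a different body are called isodecoders, and each entry was described on its own and in the sum of its anticodon.

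Nuclear tRNA genes are transcribed by RNA polymerase III, whose largest subunit is encoded by Polr3a. Glutamine is read from the codons CAG and CAA. The tRNA with anticodon CTG pairs with CAG, while the tRNA with anticodon TTG pairs with CAA and can also read CAG by wobble at its first base, a uridine that carries a thiol-containing modification in the mature molecule. Mitochondria use a separate glutamine tRNA that is encoded in their own genome and is made by a different polymerase.

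The libraries were made with QuantM-tRNA-seq, a protocol for sequencing mature tRNA, from total RNA of C57BL/6J mice fed ad libitum. The series compared 4 libraries of cerebrum with the Polr3a mutation and 6 of wildtype cerebrum, and 5 libraries of cerebellum with the mutation and 6 of wildtype cerebellum. All mice, wildtype included, received tamoxifen, which induces recombination, on postnatal day 28, and brains were collected on day 42. The sources used here name neither the allele nor the promoter that drives recombination. They do not say whether each library is a different animal, so the spread behind the p-values may be technical in part. A tRNA library does not measure Polr3a messenger RNA or cell type markers, so neither genotype nor tissue was checked that way.

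Cerebrum libraries held 4365247 to 7614658 counts. In cerebellum, 6 libraries held 1628057 to 2286338 counts (mutant 1 and wildtype 1, 2, 3, 4 and 6) and 5 held 4884664 to 7158467 counts (mutants 2 to 5 and wildtype 5), so depth moved with genotype there. The mitochondrial share of counts was 14.3% ± 1.19 in mutant cerebrum and 11.2% ± 0.445 in wildtype cerebrum, and 17.2% ± 3.0 in mutant cerebellum and 13.4% ± 0.700 in wildtype cerebellum (SD, n = 4, 6, 5 and 6). Nuclear glutamine tRNAs took 6.80% to 9.10% of nuclear tRNA counts in mutant cerebrum and 8.61% to 11% in wildtype cerebrum. They took 5.41% to 7.62% in mutant cerebellum and 5.52% to 7.29% in wildtype cerebellum.

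RefSeq lists 16 nuclear glutamine tRNA genes on GRCm38.p6, each of 72 bases, so comparing isodecoders needs no correction for length. Levels and shares below are of counts, and whether counts of different isodecoders follow their numbers of molecules was not tested. Of these, 10 carry anticodon CTG (4 on chromosome 3, 4 on chromosome 13, and 1 each on chromosomes 9 and 11) and 6 carry anticodon TTG (3 on chromosome 13, 2 on chromosome 11 and 1 on chromosome X). In the GENCODE M21 annotation, 14 of them lie in no other gene. One TTG gene, n-TQttg2 (chr11:86262168-86262239), lies in an intron of the antisense transcript Brip1os, and another, n-TQttg6 (chr11:95859172-95859243), lies in an intron of the noncoding gene 4833417C18Rik and in an exon of the long noncoding RNA Gm11527. RefSeq symbols were not matched to the table's isodecoder names, so no entry is tied to a position. The sources used here do not state how reads shared by near-identical isodecoders were counted, so values of single isodecoders carry that uncertainty and sums per anticodon do not, within an anticodon.

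The mitochondrial counterpart, mt-Tq on the minus strand at chrM:3772-3842 (GRCm38), serves as the comparator outside the nuclear set, and its gene is shown for that reason, with the anticodon in capitals.
mt-Tq: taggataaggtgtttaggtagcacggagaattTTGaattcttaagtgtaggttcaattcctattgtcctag
It has 71 bases and its anticodon stands at bases 33 to 35 from the 5′ end, the same TTG that the rarer nuclear anticodon carries.

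One isodecoder, Gln-CTG-2, took nearly all nuclear glutamine counts. The CTG anticodon took 94.8% to 97.9% of nuclear glutamine counts over the 21 libraries, and Gln-CTG-2 took 99.3% to 99.8% of the CTG counts. It ranked between 2 and 4 among all nuclear entries of a library. The TTG pool was led by Gln-TTG-1-1 and Gln-TTG-3, which together took 95.2% to 97.9% of TTG counts.

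Levels are given below as CPM after TMM scaling, which evens out library sizes on the assumption that most tRNAs do not differ. Sums per anticodon had TMM factors of their own. The CPM and differences of a sum are therefore on another scale than those of its single entries and need not add up. On the scale common to both tissues, Gln-CTG-2 averaged 79846 ± 18796 CPM in mutant cerebrum (SD, n = 4), 88097 ± 6938 in wildtype cerebrum (n = 6), 46707 ± 6285 in mutant cerebellum (n = 5) and 46163 ± 7072 in wildtype cerebellum (n = 6). Gln-TTG-1-1 followed with group means of 806 to 1513 CPM and Gln-TTG-3 with 649 to 1088 CPM. The ranges of this pair overlapped in mutant cerebrum and in both cerebellum groups and did not overlap in wildtype cerebrum. Below them came Gln-CTG-3 (group means of 106 to 164 CPM), Gln-CTG-4-1 (36.5 to 105 CPM), Gln-TTG-2-1 (47.9 to 72.4 CPM), Gln-CTG-1-1 (30.7 to 39.7 CPM), Gln-CTG-5-1 (16.4 to 23.3 CPM) and Gln-TTG-5-1 (2.68 to 12.5 CPM). Gln-CTG-4-1 stood above Gln-TTG-2-1 in both cerebrum groups and below it in both cerebellum groups. The ranges of this second pair overlapped in wildtype cerebrum and mutant cerebellum, and did not in mutant cerebrum or wildtype cerebellum.

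**Figure D1:**
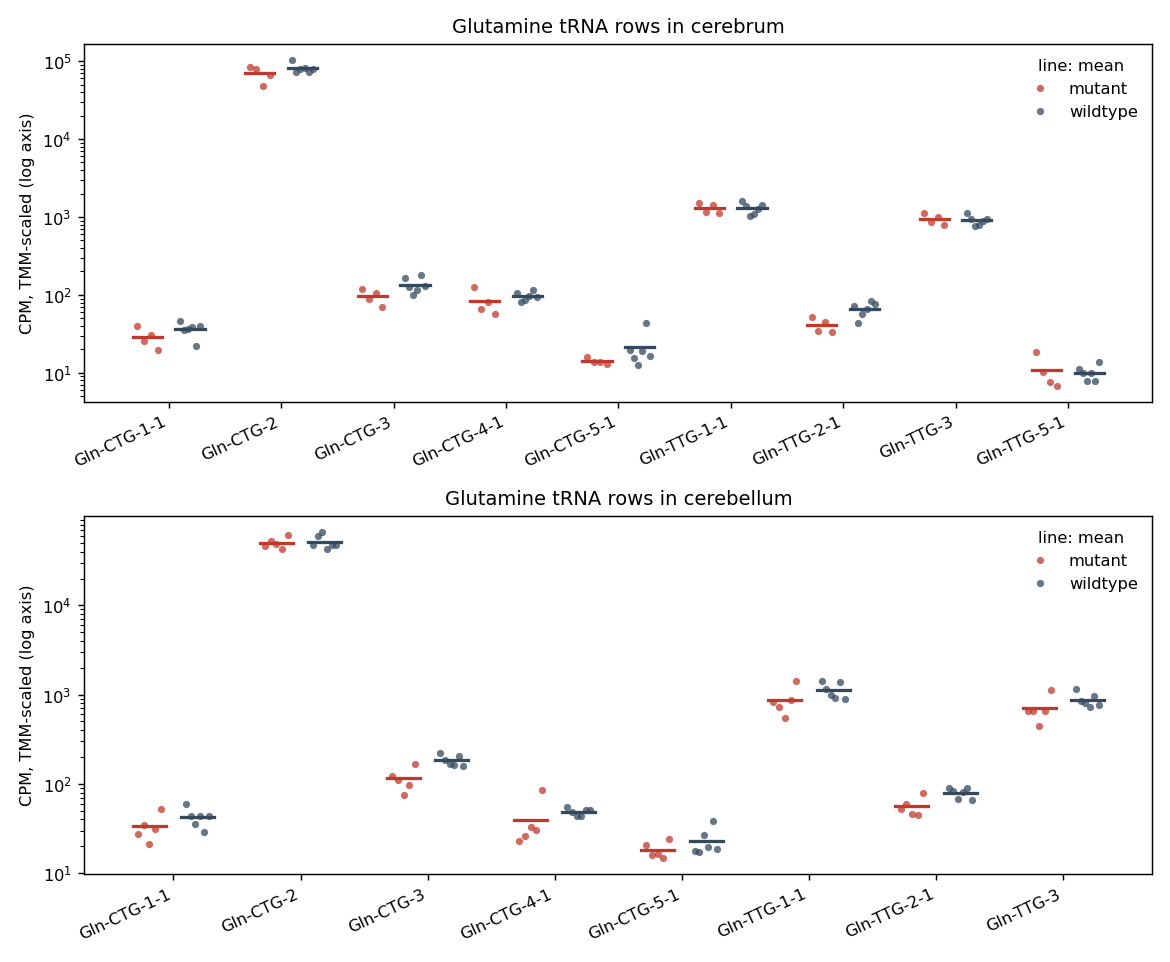
CPM after TMM scaling within each tissue (log axis) of each nuclear glutamine tRNA entry, mutant libraries in red left of wildtype libraries in dark blue, 1 point per library and a line at the mean. Gln-CTG-2 lies more than a decade above every other entry, and the mutant and wildtype ranges overlap in every entry; Gln-TTG-5-1 is missing from the cerebellum panel because its counts of 3 to 20 did not pass the filter.

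The first question was whether the mutation went with lower glutamine tRNA levels in cerebrum. In mutant cerebrum, Gln-TTG-2-1 fell by 0.67 ± 0.20 on the log2 scale (SE, 4 mutant and 6 wildtype libraries, edgeR adjusted p = 0.0190). It was the only glutamine tRNA of 9 to pass, while 41 of all 208 tRNAs tested passed in either direction (19.7%) with 24 lower (11.5%) and 17 higher (8.17%). The count of 1 in 9 lay near that background. The major species did not pass: the CTG sum differed by −0.31 ± 0.15 (edgeR adjusted p = 0.168) and the TTG sum by −0.07 ± 0.15 (edgeR adjusted p = 0.898), and 8 of 72 anticodon sums passed (11.1%). In bulk tissue, fewer cells of a type and less tRNA per cell cannot be told apart.

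Gln-TTG-2-1 had 52.4, 34.4, 45.4 and 33.8 CPM in mutant cerebrum, against a lowest, median and highest value of 43.5, 69.1 and 83.7 CPM in wildtype cerebrum. Mutants 2 and 4 lay below all wildtype libraries, and mutants 1 and 3 lay between wildtype 2 and the other wildtype libraries. The call was lost without mutant 2 (−0.59, edgeR adjusted p = 0.067) and without mutant 4 (−0.59, edgeR adjusted p = 0.0748). It was kept in the other 8 leave-outs and under all 10 other settings tried, with edgeR or DESeq2 adjusted p-values of 4.71e-05 to 0.0316.

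Gln-CTG-3 had 119.2, 88.5, 107.1 and 71.0 CPM in mutant cerebrum, against a lowest, median and highest value of 100.1, 128.4 and 178.7 CPM in wildtype cerebrum. Mutants 2 and 4 were again below the whole wildtype range, and the other mutants were within it. The difference was −0.49 ± 0.18 (edgeR adjusted p = 0.0623). It passed without mutant 1 (−0.56, edgeR adjusted p = 0.0231), without wildtype 3 (−0.57, edgeR adjusted p = 0.0365) and without wildtype 4 (−0.53, edgeR adjusted p = 0.0416).

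Gln-CTG-2 had 84373, 78025, 48390 and 66300 CPM in mutant cerebrum, against 72228, 78750 and 102366 CPM as the lowest, median and highest values in wildtype cerebrum. Mutants 3 and 4 were below all wildtype libraries and mutants 1 and 2 were within their range, and the difference of −0.23 ± 0.16 did not pass (edgeR adjusted p = 0.343). The CTG sum, on the TMM scale of sums, passed without mutant 1 (−0.39, edgeR adjusted p = 0.0233). Gln-CTG-2, which holds nearly all of that sum, passed in 0 of 10 leave-outs on the scale of single entries (lowest edgeR adjusted p = 0.131). The call for the sum therefore does not carry over to its main entry.

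The leading TTG pair stood at about the same level in both genotypes. Gln-TTG-1-1 had 1529, 1159, 1443 and 1116 CPM in mutant cerebrum, and in wildtype cerebrum 1036, 1326 and 1592 CPM as the lowest, median and highest values. Gln-TTG-3 had 1113, 862, 1012 and 787 CPM in mutant cerebrum, and 768, 919 and 1134 CPM in wildtype cerebrum on the same measures. All mutant values of both lay inside the wildtype range, with differences of 0.01 ± 0.15 for Gln-TTG-1-1 (edgeR adjusted p = 0.958) and 0.05 ± 0.14 for Gln-TTG-3 (edgeR adjusted p = 0.856). The sign for Gln-TTG-1-1 turned negative with library totals, and that of both turned negative when scaled to mitochondrial tRNA or the spike-in.

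The other low entries did not pass either. Gln-CTG-1-1 differed by −0.34 ± 0.22, Gln-CTG-4-1 by −0.22 ± 0.19, Gln-CTG-5-1 by −0.57 ± 0.28 and Gln-TTG-5-1 by 0.11 ± 0.27 (edgeR adjusted p = 0.169 to 0.830, the last turning negative on the mitochondrial and spike-in scales). Gln-CTG-4-1 passed without mutant 1 (−0.45, edgeR adjusted p = 0.0481). The 9 entries had a median log2 difference of −0.23, beside −0.07 over nuclear entries and 0.42 over mitochondrial ones. Mutant 1 was the highest mutant in all 9 entries and mutant 4 the lowest in 8 of 9. No entry had mutant and wildtype ranges apart, whereas 20 of 208 tRNAs (9.62%) had all mutants below all wildtype libraries.

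The mitochondrial glutamine tRNA, mt-Tq, had 4749, 2876, 2802 and 2288 CPM in mutant cerebrum, against a lowest, median and highest value of 1696, 2123 and 2792 CPM in wildtype cerebrum. Mutants 1, 2 and 3 were above all wildtype libraries, and the difference was 0.56 ± 0.17 (edgeR adjusted p = 0.0251; 0.35 and 0.0567 without mutant 1, 0.16 and 0.358 on the mitochondrial scale). On the TMM scale of sums the same entry had 0.47 and did not pass (edgeR adjusted p = 0.0508). This is the direction opposite to that of the called nuclear entry. It was not particular to glutamine: the median over mitochondrial entries was 0.42, and of 17 tRNAs called higher in cerebrum 2 were nuclear.

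In cerebellum the 8 glutamine entries tested were all lower in the mutant by value, and none passed. Differences ran from −0.68 for Gln-CTG-3 to −0.04 for Gln-CTG-2, with a median of −0.35, beside −0.06 over nuclear and 0.34 over mitochondrial entries. With edgeR, 0 of 8 passed and 2 had an unadjusted p under 0.05, as did 40 of all 202 tRNAs, and with DESeq2 1 passed, against 10 of 202 tRNAs lower (4.95%). Over all 202 tRNAs tested with edgeR, 5 passed (2.48%) and 4 were lower (1.98%). Gln-TTG-5-1, with 3 to 20 counts, did not pass the filter on low counts in the fit of this tissue. In the fit of both tissues 7 of 9 entries were lower in mutant cerebellum by value. How many of all 202 tRNAs were lower by value was not counted. Several entries also varied together across libraries, so their shared sign is not a set of independent observations.

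Gln-CTG-3 had 123.7, 110.5, 75.3, 96.2 and 168.9 CPM in mutant cerebellum, against a lowest, median and highest value of 158.2, 175.1 and 221.8 CPM in wildtype cerebellum. Mutants 1 to 4 lay below every wildtype library and mutant 5 lay within their range. The difference was −0.68 ± 0.19 (edgeR adjusted p = 0.0519). It passed under 7 of 11 other settings, DESeq2 among them (−0.64, adjusted p = 0.0111), with adjusted p-values of 0.00187 to 0.134 over those settings. Within the shallow libraries the mutant differed by −0.52 (1 mutant, 5 wildtype) and within the deep ones by −0.95 (4 mutant, 1 wildtype).

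Gln-TTG-2-1, the entry called in cerebrum, had 51.6, 59.3, 45.7, 44.9 and 78.4 CPM in mutant cerebellum, against a lowest, median and highest value of 65.1, 82.0 and 88.8 CPM in wildtype cerebellum. The same 4 mutants were below all wildtype libraries. The difference was −0.49 ± 0.18 (edgeR adjusted p = 0.119), with −0.57 within the shallow and −0.68 within the deep libraries.

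For the TTG sum, on the TMM scale of sums, mutant cerebellum had 1473, 1448, 1039, 1564 and 2415 CPM. The lowest, median and highest values in wildtype cerebellum were 1777, 1976 and 2764 CPM. Mutants 1 to 4 were again below all wildtype libraries and mutant 5 was inside their range. The difference of −0.42 ± 0.19 did not pass (edgeR adjusted p = 0.204), nor did any of 71 anticodon sums (0.0%). Within the shallow libraries it was −0.47 and within the deep ones −0.67. On the scale of single entries, the main parts of this sum, Gln-TTG-1-1 (−0.36 ± 0.21) and Gln-TTG-3 (−0.32 ± 0.19), had edgeR adjusted p-values of 0.351 and 0.399. The difference in scale enters the gap between the sum and its parts.

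The isodecoder with the most counts, Gln-CTG-2, had 46788, 52503, 48335, 42769 and 62212 CPM in mutant cerebellum, and 42850, 48040 and 65611 CPM as the lowest, median and highest values in wildtype cerebellum. The groups overlapped almost fully, and the CTG sum differed by −0.10 ± 0.12 (edgeR adjusted p = 0.674). Gln-CTG-2 turned to a slightly positive difference in the fit of both tissues and when mutant 4, wildtype 2 or wildtype 3 was left out. Gln-CTG-1-1, Gln-CTG-4-1 and Gln-CTG-5-1 differed by −0.33 ± 0.24, −0.28 ± 0.29 and −0.37 ± 0.24 (edgeR adjusted p = 0.435 to 0.694).

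Among the leave-outs, only that of mutant 5 changed the number of passing entries. It was the highest mutant library in all 8 entries, so leaving it out would by itself make the differences more negative. For Gln-CTG-4-1 it had 86.2 CPM, against 22.9, 26.0, 32.9 and 30.1 CPM in mutants 1 to 4 and 43.7 to 55.3 CPM in wildtype cerebellum. Without it 5 of 8 entries passed as lower, against 18 of all 204 tRNAs (8.82%): Gln-CTG-4-1 (−0.77), Gln-CTG-3 (−0.84), Gln-TTG-2-1 (−0.63), Gln-TTG-1-1 (−0.58) and Gln-TTG-3 (−0.53), with edgeR adjusted p-values of 0.00392 to 0.0277. The TTG sum then passed too (−0.61, edgeR adjusted p = 0.0324). In the other 10 leave-outs of this tissue 0 entries passed. Mutant 5 was the deepest cerebellum library, and its mitochondrial share of 19.3% stood beside 14.0% to 21.2% in the other mutants; the part of either in its values was not tested.

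The mitochondrial glutamine tRNA differed by 0.08 ± 0.16 in mutant cerebellum (edgeR adjusted p = 0.899) and turned to −0.04 without mutant 5. For the lysine and glutamate tRNAs that also come with anticodons starting in C and T, and for histidine, which shares the CAN codon box, none of 5 anticodon sums passed with edgeR in either tissue. Of these, 0 in cerebrum and 1 in cerebellum had an unadjusted p under 0.05.

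Whether the genotype difference itself differed between tissues was tested by an interaction term over the 21 libraries and 204 shared tRNAs. With edgeR, 0 of 9 glutamine entries passed and 0 had an unadjusted p under 0.05, and DESeq2 also gave 0. Cerebellum minus cerebrum values ran from −0.41 for Gln-TTG-1-1 to 0.19 for Gln-CTG-5-1, with a lowest unadjusted p of 0.0977, while 10 of 204 tRNAs passed (4.9%). The interaction was 0.23 ± 0.20 for the CTG sum and −0.33 ± 0.25 for the TTG sum (edgeR adjusted p = 0.864 and 0.799), and 1 of 72 anticodon sums passed (1.39%). Without cerebellum mutant 5 the TTG sum had −0.53 (edgeR adjusted p = 0.173) and 1 entry passed, Gln-TTG-3 (−0.62, edgeR adjusted p = 0.0419), beside 6 of 204 tRNAs (2.94%) passing in that direction.

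The size of every genotype difference depended on what the libraries were scaled to. TMM placed the median of all tRNAs at −0.03 in both tissues. Scaling to total mitochondrial tRNA placed it at −0.41 in cerebrum and −0.37 in cerebellum, and scaling to the spike-in placed it at −0.36 and −0.59. The median over glutamine entries lay below it each time: −0.63 on the mitochondrial scale and −0.63 on the spike-in scale in cerebrum, and −0.73 and −0.86 in cerebellum.

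On the mitochondrial scale 7 of 9 glutamine entries passed as lower in mutant cerebrum, against 53.4% of all tRNAs, and on the spike-in scale 6 of 9 passed, against 35.6%. In mutant cerebellum 6 of 8 passed on the mitochondrial scale, against 26.2%, and 7 of 8 on the spike-in scale, against 41.1%. These shares of all tRNAs include 22 mitochondrial entries, with medians of 0.03 in cerebrum and −0.04 in cerebellum on the mitochondrial scale. Shares over nuclear entries alone were not counted on these scales. Over all tRNAs of cerebrum the split of calls was 17 higher and 24 lower with TMM, and 0 higher and 111 lower on the mitochondrial scale. In cerebellum it was 1 higher and 4 lower with TMM, 0 and 53 on the mitochondrial scale, and 0 and 83 on the spike-in scale. Mitochondrial tRNA and spike-in shares were themselves higher in mutant libraries on average. Whether mitochondrial tRNA rose or nuclear tRNA fell cannot be told apart by shares alone. On the spike-in scale the median over mitochondrial entries was 0.08 in cerebrum and −0.20 in cerebellum. The median over nuclear entries on that scale was −0.42 in cerebrum and −0.60 in cerebellum. The cause of these shifts was not tested.

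The authors' deposited tables of log2 fold changes sat near the mitochondrial scale. Their cerebrum table by isodecoder ran wildtype over mutant, as its sign against the counts showed, and is given here as mutant over wildtype. In the authors' deposited table for cerebrum, 7 of 9 glutamine entries had an adjusted p under 0.05, against 57.6% of all entries, with Gln-TTG-2-1 at −1.07 and Gln-CTG-2 at −0.64. In the authors' deposited table for cerebellum, 7 of 9 did so against 24.4%, with Gln-CTG-3 at −1.04 and Gln-CTG-2 at −0.34, the last not passing (adjusted p = 0.109). The authors' deposited table by anticodon gave −0.64 for CTG and −0.40 for TTG in cerebrum (adjusted p = 0.00300 and 0.0410), and −0.35 and −0.71 in cerebellum (adjusted p = 0.0803 and 0.000682).

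**Figure D2:**
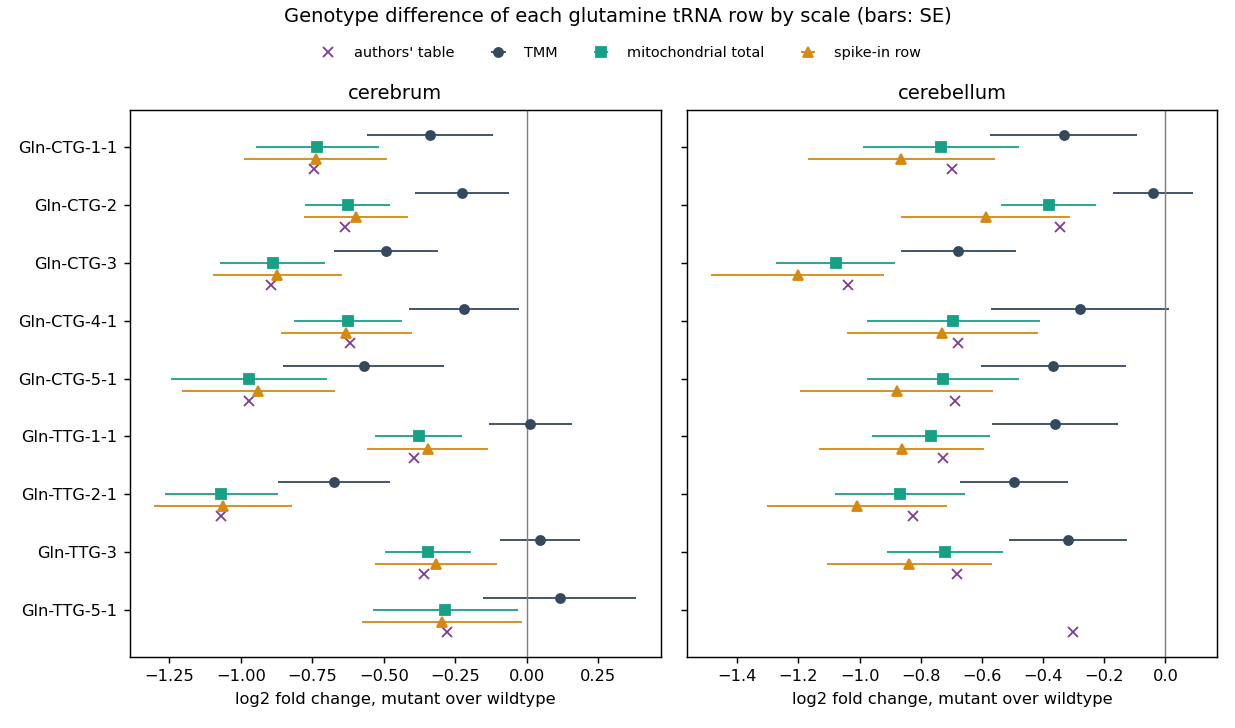
Log2 fold change, mutant over wildtype, of each glutamine tRNA entry in cerebrum and cerebellum, after TMM scaling (circles), scaling to total mitochondrial tRNA (squares) or to the spike-in (triangles), with bars of 1 SE, and as the authors' deposited table gives it (crosses). Every entry moves to lower values on the mitochondrial and spike-in scales, for example Gln-CTG-2 in cerebrum, −0.23 with TMM and −0.63 with mitochondrial scaling.

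Ratios within a library need no scaling between libraries. Against mitochondrial tRNA, the log2 ratio of the CTG sum was −1.10 ± 0.309 in mutant cerebrum (n = 4) and −0.45 ± 0.183 in wildtype cerebrum (SD, n = 6), with all 4 mutants below all wildtype libraries. The difference was −0.64 ± 0.17 (exact two-sided permutation p = 0.00952, the smallest this design allows, adjusted p = 0.0346 over 8 ratios). How many other tRNAs had ranges apart on such a ratio was not counted. In cerebellum the same ratio was −1.77 ± 0.313 in mutants (n = 5) and −1.36 ± 0.128 in wildtype (SD, n = 6), a difference of −0.41 ± 0.15 with 3 of 5 mutants below all wildtype libraries (exact permutation adjusted p = 0.0346). Within depth classes this last difference was −0.89 among shallow and −0.19 among deep libraries.

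The TTG sum against mitochondrial tRNA was −6.77 ± 0.350 in mutant cerebellum (n = 5) and −6.01 ± 0.286 in wildtype cerebellum (SD, n = 6), lower by value in 4 of 5 mutants than in any wildtype library. The difference was −0.76 ± 0.20 (exact permutation adjusted p = 0.0346), with −1.11 among shallow and −0.90 among deep libraries. This ratio and both CTG ratios to mitochondrial tRNA passed in every leave-out. For the CTG ratio in cerebrum, whose ranges were apart, that outcome was fixed in advance and adds no support. In cerebrum the TTG ratio to mitochondrial tRNA differed by −0.38 ± 0.13 (exact permutation adjusted p = 0.0435) and passed in 1 of 10 leave-outs. With mitochondrial scaling, the median fitted difference over all nuclear entries was −0.46 in cerebrum and −0.40 in cerebellum. The CTG ratio in cerebellum lay near that median, and the TTG ratio in cerebrum lay above it.

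Against the spike-in, the CTG sum differed by −0.60 ± 0.21 in cerebrum and −0.58 ± 0.25 in cerebellum (exact permutation adjusted p = 0.0346 and 0.0519), passing in 7 of 10 and 2 of 11 leave-outs. The TTG sum differed by −0.34 ± 0.12 in cerebrum and −0.93 ± 0.31 in cerebellum (exact permutation adjusted p = 0.0435 and 0.0346), passing in 1 of 10 and 7 of 11 leave-outs. With spike-in scaling, the median fitted difference over all nuclear entries was −0.42 in cerebrum and −0.60 in cerebellum. The TTG sum in cerebrum and the CTG sum in cerebellum did not lie below those medians.

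The balance of the 2 anticodons did not pass a test between genotypes. CTG counts were 31.2, 37.9, 19.4 and 34.2 times the TTG counts in mutant cerebrum, against a lowest, median and highest ratio of 30.2, 34.7 and 42 in wildtype cerebrum. Mutant 3 was below all wildtype libraries and the other mutants were within their range. The log2 difference was −0.26 ± 0.23 (exact two-sided permutation p = 0.286, adjusted p = 0.367 over 9 anticodon ratios).

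In mutant cerebellum the ratio was 30.5, 36.7, 46.8, 27.3 and 23.9, against a lowest, median and highest ratio of 18.1, 26.5 and 34.8 in wildtype cerebellum. Mutants 2 and 3 exceeded all wildtype libraries and the other mutants overlapped them. The log2 difference was 0.35 ± 0.22 (exact permutation p = 0.143, adjusted p = 0.243), with 0.21 among shallow and 0.71 among deep libraries. The corresponding lysine and glutamate ratios did not pass either (exact permutation adjusted p = 0.185 to 0.810 in both tissues).

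Within an anticodon, each minor isodecoder was set against the leading one in 21 ratio tests. None passed between genotypes. Gln-CTG-3 per Gln-CTG-2 had the lowest p in cerebellum, with a log2 ratio of −8.82 ± 0.322 in mutants (n = 5) and −8.14 ± 0.323 in wildtype (SD, n = 6), a difference of −0.68 ± 0.20 (exact permutation p = 0.0130, adjusted p = 0.0545). Of 5 mutants, 3 were below all wildtype libraries, and the ratio passed without wildtype 3 (adjusted p = 0.0364). Gln-TTG-2-1 per Gln-TTG-1-1 was −4.99 ± 0.0916 in mutant cerebrum (n = 4) and −4.31 ± 0.392 in wildtype cerebrum (SD, n = 6), a difference of −0.69 ± 0.17 (exact permutation p = 0.0286, adjusted p = 0.0750), and −0.11 ± 0.16 in cerebellum. Gln-TTG-3 per Gln-TTG-1-1 was the steadiest, with differences of 0.03 ± 0.03 in cerebrum and 0.04 ± 0.06 in cerebellum.

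**Figure D3:**
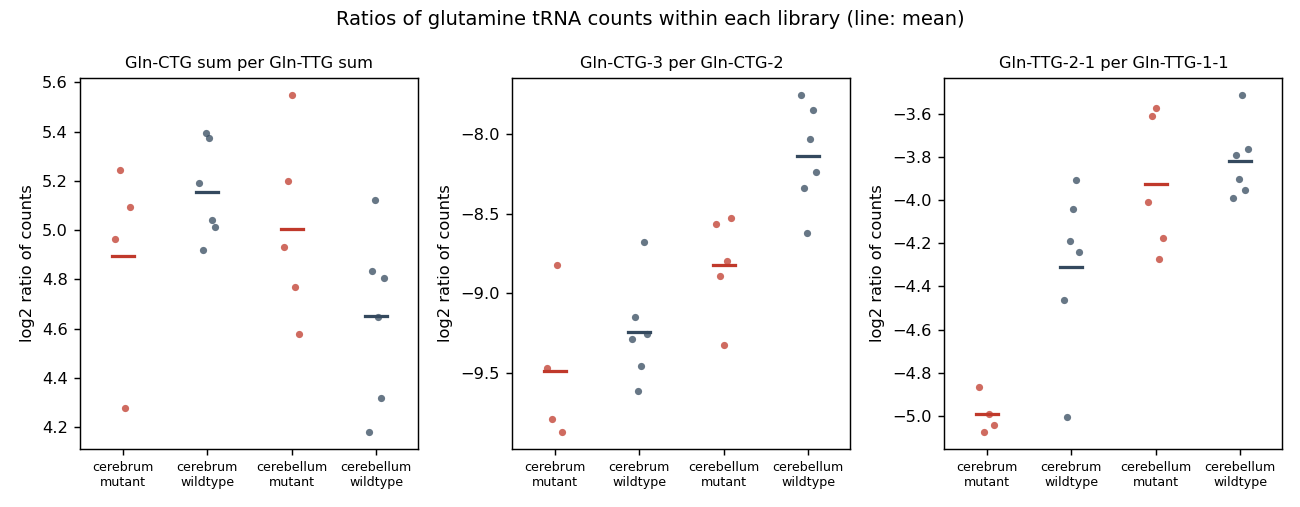
Log2 ratios of counts within each library for CTG per TTG, Gln-CTG-3 per Gln-CTG-2 and Gln-TTG-2-1 per Gln-TTG-1-1, in mutant (red) and wildtype (dark blue) libraries of cerebrum and cerebellum, 1 point per library and a line at the mean. Mutant cerebellum sits below wildtype cerebellum on average for Gln-CTG-3 per Gln-CTG-2 (−8.82 and −8.14), with points that overlap.

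The tissues were compared in wildtype mice. There, 5 of 9 entries were lower in cerebellum than in cerebrum and none was higher, while 145 of 204 tRNAs passed in either direction (71.1%) and 77 were lower (37.7%). With a mean count of at least 50, which left out Gln-TTG-5-1, 3 of 8 entries were lower, against 37.8% of all tRNAs. In the main fit the glutamine median was −0.34 on the log2 scale, beside −0.05 over all tRNAs. The CTG sum of all 6 wildtype cerebellum libraries lay below that of all 6 wildtype cerebrum libraries, with a difference of −0.91 ± 0.13 (edgeR adjusted p = 6.94e-07), and the TTG sum differed by −0.40 ± 0.17 (edgeR adjusted p = 0.0307). Of 72 anticodon sums, 28 were lower (38.9%) and 26 higher (36.1%). Tissue moved with depth here, since all cerebrum libraries were deep and 5 of 6 wildtype cerebellum libraries were shallow. The deep wildtype cerebellum library, number 5, lay inside the range of the shallow ones for 7 of 9 entries, with 43073 CPM of Gln-CTG-2 beside a shallow median of 43214 CPM. It lay above that range for Gln-CTG-5-1 (34.5 CPM, shallow highest 22.7 CPM) and below it for Gln-CTG-1-1 (25.8 CPM, shallow lowest 30.4 CPM). For the TTG sum it had 2252 CPM, and only 1 of 5 shallow libraries was higher (shallow median 1692 CPM). The part of depth in the tissue differences was not tested.

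Gln-CTG-2 had a lowest, median and highest value of 38089, 43143 and 56007 CPM in wildtype cerebellum, against 79423, 87794 and 100223 CPM in wildtype cerebrum. No library of one tissue reached the range of the other, and the difference was −0.93 ± 0.13 (edgeR adjusted p = 3.75e-07). Gln-CTG-4-1 had 37.3, 44.4 and 49.8 CPM in wildtype cerebellum on these measures, against 89.0, 103.7 and 131.2 CPM in wildtype cerebrum, again with no overlap (−1.28 ± 0.24, edgeR adjusted p = 3.49e-05). Gln-TTG-5-1 had 1.68, 2.10 and 6.08 CPM in wildtype cerebellum and 9.02, 10.8 and 15.1 CPM in wildtype cerebrum (−2.07 ± 0.31, edgeR adjusted p = 1.53e-06), and rested on 3 to 15 counts per wildtype cerebellum library. The filter of the fit of both tissues kept it, with 36 to 72 counts per wildtype cerebrum library. It did not pass the filter in cerebellum alone, and a mean count of at least 50 also removed it, so its call depends on the filter. Gln-CTG-2, Gln-CTG-4-1 and Gln-TTG-5-1 were the 3 of 9 entries with ranges apart, beside 28.4% of tRNAs with all cerebellum libraries below all cerebrum libraries.

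The leading TTG pair differed by less. Gln-TTG-1-1 differed by −0.50 ± 0.17 (edgeR adjusted p = 0.00927) and Gln-TTG-3 by −0.34 ± 0.15 (edgeR adjusted p = 0.0499). The call for Gln-TTG-3 lay at the threshold and was lost in 14 of 21 leave-outs, and it passed under 3 of 9 other settings. With library totals in place of TMM, Gln-TTG-1-1 had −0.20 and Gln-TTG-3 −0.05, neither passing, and the TTG sum had −0.13 (adjusted p = 0.506). The TTG sum kept its call in 16 of 21 leave-outs.

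Gln-CTG-3, Gln-CTG-1-1, Gln-CTG-5-1 and Gln-TTG-2-1 did not pass between tissues, with 0.15 ± 0.17, −0.07 ± 0.21, −0.14 ± 0.25 and −0.04 ± 0.18. On the spike-in scale all 9 entries passed as lower in wildtype cerebellum, against 67.6% of all tRNAs, and Gln-CTG-3 then had −0.77. Gln-CTG-1-1, Gln-CTG-5-1 and Gln-TTG-2-1 changed sign with library totals (0.22, 0.15 and 0.26). The median of all tRNAs between tissues was −0.05 with TMM, 0.24 with library totals and −0.99 with the spike-in.

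**Figure D4:**
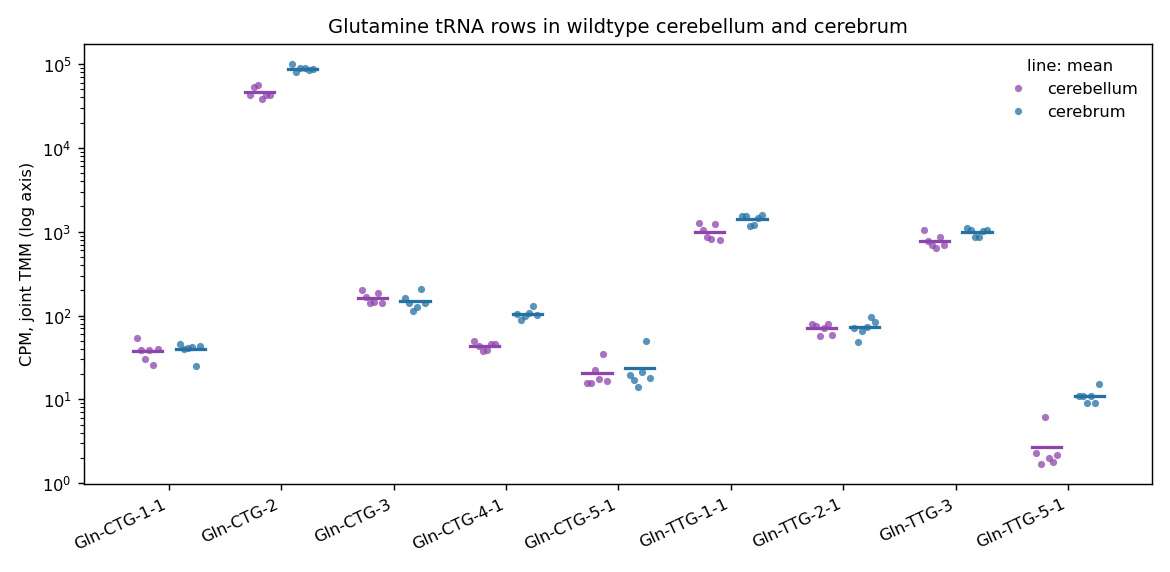
CPM on the TMM scale common to both tissues (log axis) of each glutamine tRNA entry in wildtype libraries, cerebellum in purple left of cerebrum in blue, 1 point per library and a line at the mean. Gln-CTG-2, Gln-CTG-4-1 and Gln-TTG-5-1 have cerebellum points entirely below cerebrum points, and Gln-CTG-3 overlaps fully.

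Ratios within libraries were also compared between tissues. CTG per TTG was 4.65 ± 0.350 on the log2 scale in wildtype cerebellum and 5.15 ± 0.198 in wildtype cerebrum (SD, n = 6 each), a difference of −0.50 ± 0.16 with 5 of 6 cerebellum libraries below all cerebrum libraries (exact two-sided permutation p = 0.0108, adjusted p = 0.0487). This call was lost in 11 of 12 leave-outs, where exact permutation adjusted p-values ran from 0.0292 to 0.0974. It was also lost with the ratio of the leading isodecoders alone (exact permutation adjusted p = 0.166). The replicate block gave an exact permutation adjusted p of 0.141, the lowest that a test over 6 pairs allowed here. The block could therefore not have kept the call and does not bear on it. Gln-CTG-3 per Gln-CTG-2 was higher by 1.10 ± 0.19 and Gln-CTG-1-1 per Gln-CTG-2 by 0.87 ± 0.22, each with all 6 cerebellum libraries above all cerebrum libraries (exact permutation p = 0.00216, the smallest possible, adjusted p = 0.0227). Both passed in all 12 leave-outs, which was fixed in advance and adds no support. With ranges apart, every leave-out gives the smallest p its design allows (exact permutation adjusted p = 0.0455 each time). The 2 ratios also share the denominator Gln-CTG-2, itself lower in wildtype cerebellum. Gln-TTG-2-1 per Gln-TTG-1-1 was higher by 0.49 ± 0.17 and Gln-TTG-5-1 per Gln-TTG-1-1 lower, with −1.66 ± 0.36 (exact permutation adjusted p = 0.0455 each), and these passed in 3 and 1 of 12 leave-outs.

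Of the related anticodons, His-GTG was higher in wildtype cerebellum (1.85 ± 0.15, edgeR adjusted p = 4.60e-12) and so was Glu-CTC (0.51 ± 0.094, edgeR adjusted p = 1.63e-05), with Glu-CTC changing sign on the spike-in scale. Lys-TTT was lower (−0.54 ± 0.16, edgeR adjusted p = 0.00329). Lys-CTT (−0.24 ± 0.14) and Glu-TTC (0.13 ± 0.12) did not pass. As ratios within libraries, Glu-CTC per Glu-TTC was higher in wildtype cerebellum (0.40 ± 0.14, exact permutation adjusted p = 0.0487), opposite to CTG per TTG, and passed in 3 of 12 leave-outs. Lys-CTT per Lys-TTT did not pass (0.28 ± 0.15, exact permutation adjusted p = 0.185). The glutamate and glutamine ratios share a family of 9 tests, so their adjusted p-values depend on each other. The mitochondrial glutamine tRNA was lower in wildtype cerebellum as well (−0.54 ± 0.17, edgeR adjusted p = 0.00480).

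How the entries varied together across the 21 libraries is given as a description, since the points share tissue, depth and scaling. Gln-TTG-1-1 and Gln-TTG-3 had a Pearson r of 0.982 in log2 CPM, and 0.964 after group means were removed. Gln-CTG-3 went with Gln-TTG-3 (0.865) and Gln-TTG-1-1 (0.831) after group means were removed, and with Gln-CTG-2 hardly at all (0.153). Among 46 other nuclear anticodon sums, the 3 most like Gln-CTG were Ser-CGA (r = 0.944), Ser-TGA (0.937) and Arg-ACG (0.933), and the 3 most like Gln-TTG were Lys-TTT (0.840), Cys-GCA (0.833) and Arg-CCT (0.802). Gln-CTG and Gln-TTG correlated at 0.686 with each other.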

How the data were processed

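The submitters' processing notes name the build mm10 and the tools cutadapt, Bowtie2, featureCounts and DESeq2, without versions, roles or settings. For each tissue the authors deposited raw, unnormalized counts per tRNA. Their deposited comparison tables hold a log2 fold change, its p-value and adjusted p-value, a test statistic (a score) and a mean signal, per the file headers; statistic and mean are not interpreted here.

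The spike-in was left out of library sizes and tests. Tests across tRNAs used edgeR 4.0.16 in R 4.3.3 on the deposited counts, with TMM scaling, filterByExpr (minimum count 10), robust quasi-likelihood fits, two-sided tests and Benjamini-Hochberg adjustment over all tRNAs at a threshold of 0.05. The SE of a log2 fold change was obtained by dividing it by the root of its F statistic. Each tissue was fitted alone for genotype, and all 21 libraries together for tissue and interaction. Counts were summed per anticodon, nuclear and mitochondrial apart, and TMM factors were computed anew on the sums. Ratios were log2 of counts within a library, tested by exact two-sided permutation with the smaller tail doubled, and adjusted within families of 9, 21 and 8 tests. Alternatives were other scalings, DESeq2 1.42.0, other filters, sex or depth class as a covariate, a replicate block, a joint fit and leave-outs. The steps were tested on simulated data.

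Members, related anticodons and lists were chosen with earlier results of these data known. All nuclear glutamine entries were named, whatever their values, with the mitochondrial one and 5 related anticodon sums. Replicate numbers were not used to pair the libraries in the main tests, and whether they mark pairs is not known. No 2 replicates agreed within sampling noise (lowest chi-square per degree of freedom 44.3). Errors of CPM are the spread between libraries, and no counting intervals were computed.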

Additional observations from a re-analysis of the deposited data

Results flagged for a closer look

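For each group of 4 to 10 libraries, the library farthest from the rest was marked where its gap to the nearest other library was large against the range of the group. This held in 9 of 90 groups of values looked at, and chance alone marks about 1 group in 20. In wildtype cerebrum, library 1 was high for Gln-CTG-2, with 102366 CPM, and for the log2 ratio of Gln-CTG to mitochondrial tRNA, with −0.11. Wildtype cerebrum library 5 was high for Gln-CTG-5-1, with 43.7 CPM, and against Gln-CTG-2 its log2 ratios were high for Gln-CTG-5-1 (−10.71) and Gln-CTG-4-1 (−9.33) and low for Gln-CTG-1-1 (−11.71). In cerebellum, mutant 5 was high for Gln-CTG-4-1, with 86.2 CPM, and for the log2 ratio of Gln-TTG to the spike-in, with −1.45. Wildtype cerebellum library 3 was high for the log2 ratio of Gln-CTG to the spike-in, with 3.92, and had the lowest spike-in share of the tissue, 0.401%.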

How the results depend on the processing

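Of 346 recomputed values of the counts of passing glutamine entries, the Gln-CTG and Gln-TTG sums and their ratio, 299 kept their direction and side of the threshold (for counts, within 1.5 times). Of these 346, 0 changed sign, which the counts of passing entries cannot do. Of 1228 for single entries, related anticodon sums and other ratios, 1042 kept direction and side and 49 changed sign. The cause of a change was not tested. Passing glutamine entries in cerebrum numbered 1 with TMM, 7 with mitochondrial scaling, 6 with spike-in scaling and 2 with a mean count of at least 50, where 13.6% of all tRNAs were lower (0 to 3 over leave-outs). In cerebellum they numbered 0 with TMM, 6 and 7 on those scales, and 1 each with library totals, DESeq2, no filter and the joint fit, where 3.47%, 4.95%, 2.88% and 1.96% of all tRNAs were lower (0 to 5 over leave-outs). Between tissues they numbered 5 with TMM and 9 with spike-in scaling. With the mean count filter, which left out Gln-TTG-5-1, 3 of 8 passed (37.8% of all tRNAs lower). For the interaction they numbered 0, with 0 to 1 over leave-outs. Over all tRNAs of cerebellum, calls numbered 1 higher and 4 lower with edgeR, 13 and 10 with DESeq2, 12 and 4 in the joint fit and 0 and 0 with depth class as a covariate. The CTG sum in cerebrum had −0.63 and −0.60 on the mitochondrial and spike-in scales (−0.39 to −0.17 over leave-outs), the TTG sum in cerebrum −0.38 on the mitochondrial scale, and the TTG sum in cerebellum −0.75 and −0.86 (−0.61 to −0.30 over leave-outs). Between tissues the TTG sum had −0.13 with library totals (−0.49 to −0.32 over leave-outs), and CTG per TTG −0.43, no longer passing, with the leading isodecoders alone (−0.60 to −0.41 over leave-outs).

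Signs turned as follows. In cerebrum Gln-TTG-1-1 had −0.020 with library totals, −0.38 and −0.35 on the mitochondrial and spike-in scales (−0.0433 to 0.10 over leave-outs), Gln-TTG-3 −0.35 and −0.32, and Gln-TTG-5-1 −0.28 and −0.30 (−0.23 to 0.28). In cerebellum Gln-CTG-2 had 0.017 in the joint fit (−0.11 to 0.0314 over leave-outs), and mt-Tq −0.32 and −0.46 on the mitochondrial and spike-in scales (−0.0417 to 0.20). Between tissues Gln-TTG-2-1 had 0.0054 with RLE size factors, 0.0058 with DESeq2 and 0.26 with library totals (−0.14 to 0.0579 over leave-outs), Gln-CTG-1-1 0.22 and Gln-CTG-5-1 0.15 with library totals (−0.21 to 0.0267 and −0.39 to 0.23), Gln-CTG-3 −0.77 with the spike-in, Lys-CTT 0.0215 with library totals, and, with the spike-in, Glu-CTC −0.41 (a called 0.51 with TMM) and Glu-TTC −0.84. Ratios in cerebrum that turned over leave-outs were Lys-CTT per Lys-TTT (−0.0338 to 0.18), Gln-TTG-5-1 per Gln-TTG-1-1 (−0.22 to 0.17) and Gln-CTG-1-1, Gln-CTG-4-1 and Gln-CTG-5-1 per Gln-CTG-2 (−0.30 to 0.0531, −0.21 to 0.12 and −0.36 to 0.0551), and in cerebellum Lys-CTT per Lys-TTT (−0.0141 to 0.16).

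Libraries of different groups share replicate numbers, which the main tests did not use as pairs. Correlations of same-numbered libraries ran from −0.25 to 0.63 between genotypes in cerebrum, with 2 of 4 pairs over 0.1. In cerebellum they ran from −0.09 to 0.13, with 1 of 5 pairs over 0.1. Between tissues they ran from 0.0069 to 0.43 in wildtype, with 4 of 6 pairs over 0.1, and from −0.09 to 0.39 in mutants, with 2 of 4 pairs over 0.1. The tissue and interaction fits treat these libraries as independent, and whether a number marks 1 mouse is not stated. With the replicate block, 2 entries passed in cerebrum (17.8% of all tRNAs lower), 1 in cerebellum (1.98%) and 2 as lower for the interaction (5.39%). These last were Gln-TTG-1-1 and Gln-TTG-3, a pair that did not pass the interaction without the block. For the wildtype CTG per TTG ratio of −0.50, the block over 6 pairs was too small to pass whatever the values. Depth limits Gln-TTG-5-1 most, at 3 to 20 counts per cerebellum library.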
